A study of Mus musculus with 8 samples.

Results

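The genes described are the 10 nuclear regulators of fuel use of the PPAR, ERR and PGC-1 families with their partners: Ppara, Ppard and Pparg, Ppargc1a and Ppargc1b, Esrra, Esrrb and Esrrg, Rxra, and Nrf1. They were chosen by gene symbol, and each of the 10 symbols was found once among the 32285 genes of the count matrices. Single-nucleus RNA-seq was done on whole hearts of male mice at 9 weeks of age, with 1 library per mouse, 4 wild-type (WT) mice and 4 Tafazzin-knockout (Taz-KO) mice. Tafazzin is the mitochondrial enzyme that remodels cardiolipin, and its loss causes Barth syndrome, an X-linked disease with cardiomyopathy. The labels name no treatment, and no promoter or Cre that would limit the knockout to 1 cell type. The removed part of Taz is not given in the sources used here.

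PPARα, PPARδ and PPARγ are fatty acid-sensing nuclear receptors that bind DNA with a retinoid X receptor such as RXRα and switch on genes for fatty acid uptake, storage and β-oxidation. The estrogen-related receptors ERRα, ERRβ and ERRγ are orphan receptors that act on many of the same genes and on the respiratory chain and the citric acid cycle. PGC-1α and PGC-1β, the products of Ppargc1a and Ppargc1b, bind no DNA themselves and are recruited by both families and by NRF1, an activator of nuclear genes for mitochondrial proteins. In the adult heart, which burns mostly fatty acids, Acadm (medium-chain acyl-CoA dehydrogenase) and Cpt1b (the muscle form of carnitine palmitoyltransferase 1) are textbook targets of this system.

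Nuclear RNA was counted as unique molecular identifiers (UMIs), and 145410893 to 348080773 UMIs were counted in each of 6 libraries. Taz-KO 1 and Taz-KO 4 were far shallower, at 21628801 and 20025456 UMIs, and gave 3492 and 5571 barcodes of the 169193 in all. No pair of libraries shared more than 1.045% of the barcodes of its smaller member. After filtering, 151264 nuclei remained, and 110914 of them fell into clusters that could be named as 10 cell types from their marker genes, among them 27690 cardiomyocytes (CMs), 37794 fibroblasts (FBs), 21287 endothelial cells (ECs), 11957 macrophages (MACs) and 787 adipocytes (ADIPOs). Another 40350 nuclei stayed without a name. Of these, 17167 were in 1 cluster with markers of CMs and mesothelial cells and a median of 26.1% mitochondrial UMIs. The study kept fewer nuclei in all after its own filters. How many barcodes counted as nuclei here were not single nuclei was not tested. The CM comparison rested on 3517 to 4447 nuclei per WT mouse and on 214, 6512, 4381 and 1054 nuclei of Taz-KO 1 to 4. Mitochondrial UMIs made up 5.03% to 17.03% of CM counts in WT and 0.553% to 12.3% in Taz-KO, and their part in the results was not tested. Markers of other cell types in CM sums overlapped between genotypes for each list other than that of B-lymphocytes, at a summed 26.8 to 38.03 CPM in WT and 13.1 to 22.2 CPM in Taz-KO. The fibroblast list summed to 2500 to 6174 CPM in WT and 1039 to 4799 CPM in Taz-KO CMs. In FBs themselves it summed to 14719 to 19184 CPM in WT and 11639 to 19896 CPM in Taz-KO. No marker of any list was at 0 in the CMs of all 8 mice. With free RNA subtracted at a share of 0.2, both regulators called in CMs below were called as well. The profile subtracted was that of all barcodes of a library, and the share was the same in every mouse. A share that differs between mice or genotypes was not tested.

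Promoters are shown for Acadm, Rxra and Ppara, each as a window that held a motif described here. Acadm and Rxra were lower in Taz-KO CMs below, and Ppara is the PPAR gene with the closest tie to β-oxidation. The windows reach from 250 bases before to 50 bases after an annotated start and come from RefSeq on GRCm38.p6. Capitals mark the half-site AGGTCA, read as TGACCT on the other strand, which PPAR, RXR and ERR proteins share, or the NRF1 motif GCGCATGCG (CGCATGCGC on the other strand). Each motif was searched on both strands. The Acadm window, chr3:153944594-153944893 on the minus strand, held 1 half-site and the NRF1 motif. The second annotated start of Rxra, chr2:27709042-27709341 on the plus strand, held 2 half-sites, 1 on each strand. The first start of Rxra held neither motif. Nor did the 2 windows of Esrrb, also lower in Taz-KO CMs, and these are not shown. The Ppara window, chr15:85735526-85735825 on the plus strand, held the NRF1 motif on both strands, as overlapping matches.
Acadm: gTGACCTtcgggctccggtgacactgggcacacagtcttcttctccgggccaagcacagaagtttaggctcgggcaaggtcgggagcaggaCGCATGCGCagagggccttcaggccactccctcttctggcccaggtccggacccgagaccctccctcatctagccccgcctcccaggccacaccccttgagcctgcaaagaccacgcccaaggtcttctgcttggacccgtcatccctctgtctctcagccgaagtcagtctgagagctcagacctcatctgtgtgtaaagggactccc
Rxra: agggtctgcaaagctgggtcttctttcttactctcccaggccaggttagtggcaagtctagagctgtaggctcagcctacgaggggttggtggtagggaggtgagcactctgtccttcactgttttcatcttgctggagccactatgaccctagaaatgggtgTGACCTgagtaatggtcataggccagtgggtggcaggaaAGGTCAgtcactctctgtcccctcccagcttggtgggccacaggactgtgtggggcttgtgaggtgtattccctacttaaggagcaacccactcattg
Ppara: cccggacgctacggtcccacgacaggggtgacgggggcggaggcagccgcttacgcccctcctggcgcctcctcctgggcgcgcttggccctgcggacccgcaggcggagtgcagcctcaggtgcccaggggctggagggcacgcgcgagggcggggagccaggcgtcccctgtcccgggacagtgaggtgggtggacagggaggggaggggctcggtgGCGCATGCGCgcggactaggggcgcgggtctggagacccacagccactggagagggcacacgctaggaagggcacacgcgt
Among 18 windows found for 10 of the 12 genes looked up (9 members and Acadm), 4 held the half-site, those shown of Acadm and Rxra and 2 of the 3 of Pparg. Of all 32851 promoter windows of this length, 16.3% held it on either strand. The NRF1 motif was in 1.75% of all windows and in 2 of the 18, and the longer ERR element TNAAGGTCA, which holds the half-site within it, was in 1.28% of all windows and in 0 of the 18. A match of letters is a description of the sequence and does not show binding.

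The regulators differed widely in where they were found. Levels of this paragraph and the next are plain CPM, the UMIs of a gene scaled to the total of all nuclei of 1 cell type in 1 mouse, as mean ± SD over 4 WT mice, and they are compared between cell types for 1 gene at a time. Ppara was highest in ADIPOs, at 1179 ± 858 CPM, and next in CMs, at 385 ± 81.0 CPM, and the mice of these 2 cell types overlapped. Schwann cells followed at 98.1 ± 26.2 CPM, below every CM value, and the other 7 cell types had means of 32.6 to 46.6 CPM with overlapping mice. Pparg, the adipocyte receptor, was at 1890 ± 573 CPM in ADIPOs, above every mouse of ECs, which came next at 209 ± 60.2 CPM. Lymphatic ECs, at 187 ± 49.3 CPM, were not apart from ECs, and CMs were at 72.2 ± 7.24 CPM. Ppard was the most even of the 3 receptors, with 130 ± 33.9 CPM in pericytes, apart from 47.5 to 76.4 CPM in the other 9 cell types. Pparg thus stood out in ADIPOs alone, and Ppara in both ADIPOs and CMs.

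**Figure D1:**
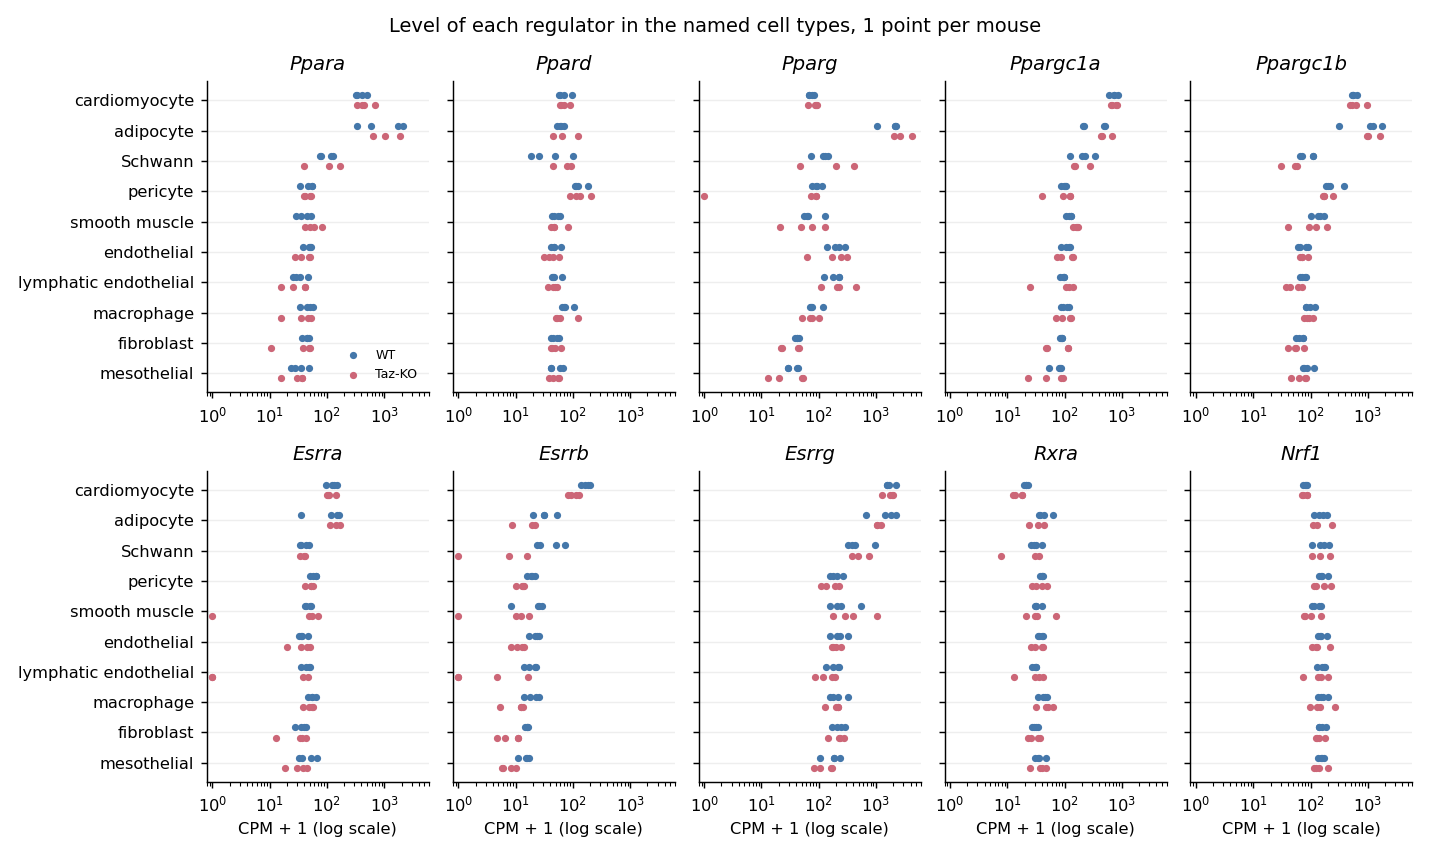
Level of each of the 10 regulators in 10 cell types of the heart, as plain CPM + 1 on a log axis, with 1 point per mouse for WT (blue) and Taz-KO (red). Esrrb and Ppargc1a stand highest in CMs, Pparg in ADIPOs, and Rxra and Nrf1 have their lowest WT means in CMs, at 20.4 and 80.3 CPM.

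Ppargc1a was highest in CMs, at 720 ± 103 CPM, apart from ADIPOs at 352 ± 160 CPM, while the lowest mean was 74.0 ± 14.4 CPM in mesothelial cells. Ppargc1b had its highest mean in ADIPOs, at 1095 ± 599 CPM, which overlapped with 568 ± 47.3 CPM in CMs. Pericytes came next at 247 ± 93.1 CPM, apart from CMs and from smooth muscle cells but not from ADIPOs. Among the ERR genes, Esrrb, best known as a regulator of stem cell identity, was at 169 ± 25.2 CPM in CMs and at or below 42.4 ± 23.5 CPM in every other cell type. Esrrg was at 1735 ± 309 CPM in CMs and 1536 ± 667 CPM in ADIPOs, with overlapping mice, and Esrra at 124 ± 21.7 and 115 ± 56.5 CPM in the same pair. Rxra and Nrf1 went the other way in CPM, which is a share of all UMIs of the cell type. In WT mice the median nucleus held 8721 to 11920 UMIs in CMs and 4307 to 6332 in FBs. Levels per nucleus were not compared. For Rxra, CMs had the lowest mean of the 10 cell types, at 20.4 ± 1.45 CPM, apart from lymphatic ECs at 29.0 ± 2.18 CPM, and ADIPOs the highest, at 44.0 ± 12.7 CPM. For Nrf1, CMs were at 80.3 ± 5.87 CPM, apart from smooth muscle cells at 128 ± 21.7 CPM, and the other 8 cell types lay between 152 and 162 CPM and overlapped.

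Transcripts of CM markers were found in the nuclei of the other cell types too, so that levels there were set beside 2 abundant CM transcripts, Ttn and Ryr2, each as the ratio to CMs of the same mouse. In FBs these markers kept 0.043 to 0.184 of their CM level, in ECs 0.068 to 0.229 and in MACs 0.056 to 0.232. The Esrrb ratio was 0.029 to 0.123 in FBs, 0.057 to 0.154 in ECs and 0.034 to 0.160 in MACs, and it was above both marker ratios in 0 of 8 mice in each. The low Esrrb levels of these 3 cell types thus exceeded both CM markers in no mouse. Ppara, Ppargc1a, Ppargc1b and Esrrg were above both markers in at most 2 of 8 mice in these 3 cell types. Rxra, Nrf1, Ppard, Pparg and Esrra were above both in 8 of 8 mice. Against the median of all 8 CM markers, Rxra and Nrf1 were above in 8 of 8 mice and Ppard and Pparg in 7 or 8, but Esrra in 3 of 8 in FBs, 3 of 8 in ECs and 4 of 8 in MACs. In ADIPOs the Pparg ratio was 15.8 to 50.2, and that of Ppara was 0.809 to 6.65. The whole set of 8 CM markers spread more widely, from 0.041 to 2.05 in FBs, so the bound depends on the marker.

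The genes most alike in pattern were looked for by Pearson's r of log2(CPM + 1) over 78 sums of 1 mouse and 1 cell type, among 13587 genes, and are given as a description, since sums of 1 library share its depth and its free RNA. For Ppara they were Esrrg (r = 0.902), Acacb, the acetyl-CoA carboxylase of muscle mitochondria (0.894), and Gk, glycerol kinase (0.891). For Ppargc1a they were Esrrg (0.901), Ppara (0.870) and Gk (0.847), and for Esrrg they were Ppara, Ppargc1a and Stau2 (0.867), so that 3 of the regulators were near one another in this ranking. Ppargc1b went with Cox10, a heme A synthesis enzyme (0.911), Vwa8 (0.882) and Chchd3 (0.879), both mitochondrial proteins. Esrrb went with Cpeb3 (0.845), the formin Fhod3 (0.835) and Itgb6 (0.833). Pparg went with the adiponectin receptor gene Adipor2 (0.846), the lipase gene Lipe (0.839) and Gm44079 (0.865), which overlaps Pparg on the opposite strand.

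In CMs, 2 of the 10 regulators differed between Taz-KO and WT, and both, Esrrb and Rxra, were lower in Taz-KO. The test was edgeR's quasi-likelihood test on UMIs summed per mouse, with Benjamini-Hochberg adjusted p over all 18299 genes tested, and a gene was called at an adjusted p under 0.05. Of all genes tested, 15.3% were called, 6.63% as lower and 8.62% as higher in Taz-KO, so that the members' 2 of 10 (20%) is near the background and is no result about the set. The other 8 did not pass, 7 of the 10 fold changes were below zero, and their median was -0.14 on the log2 scale, against -0.01 over all genes. Values of single genes from here on are CPM with TMM factors unless called plain, in the order of mice 1 to 4 of a genotype. Log2 fold changes are Taz-KO over WT ± SE. Sums of marker lists are plain CPM throughout. Taz itself was at 55.6, 48.8, 54.0 and 57.4 CPM in WT CMs and at 36.3, 38.3, 23.6 and 35.9 CPM in Taz-KO CMs. These mice did not overlap (-0.69, adjusted p = 0.0192), although tags from the 3' end, which may lie outside the removed part, do not check the knockout.

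Rxra (chr2:27676440-27762957, plus strand, GRCm38), the shared partner of the PPARs, was at 21.4, 21.9, 20.1 and 21.9 CPM in WT CMs and at 15.01, 11.7, 14.4 and 14.3 CPM in Taz-KO CMs. The WT mice were tightly grouped, and every Taz-KO mouse lay below every WT mouse. The mean fell from 21.3 ± 0.84 to 13.8 ± 1.46 CPM (SD, n = 4 each), to 64.9% of WT, with a log2 fold change of -0.63 ± 0.15 and an adjusted p of 0.0136. Esrrb (chr12:86361117-86521628, plus strand) was at 205, 136, 162 and 211 CPM in WT CMs and at 99.0, 93.2, 69.2 and 141 CPM in Taz-KO CMs. The genotypes overlapped here, as Taz-KO 4 was just above WT 2, while the other 3 Taz-KO mice were below every WT mouse. Its mean fell from 178 ± 35.7 to 101 ± 29.8 CPM, to 56.4% of WT (-0.83 ± 0.23, adjusted p = 0.0350). This call was less firm than that of Rxra, since it was lost on leaving out any 1 of Taz-KO 1, 2 or 3 or WT 1, 3 or 4, with log2 fold changes of -0.88 to -0.68 and adjusted p of 0.0507 to 0.0821, and within the largest CM cluster alone (-0.59, adjusted p = 0.223). Rxra passed under all 18 alternatives run, with log2 fold changes of -0.79 to -0.55. The fibroblast markers in CM sums had means of 4645 CPM in WT and 3218 CPM in Taz-KO, with overlapping mice. In WT, Rxra was lower in CMs than in the other cell types on plain CPM. The part of RNA from those cell types in its difference was not tested.

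**Figure D2:**
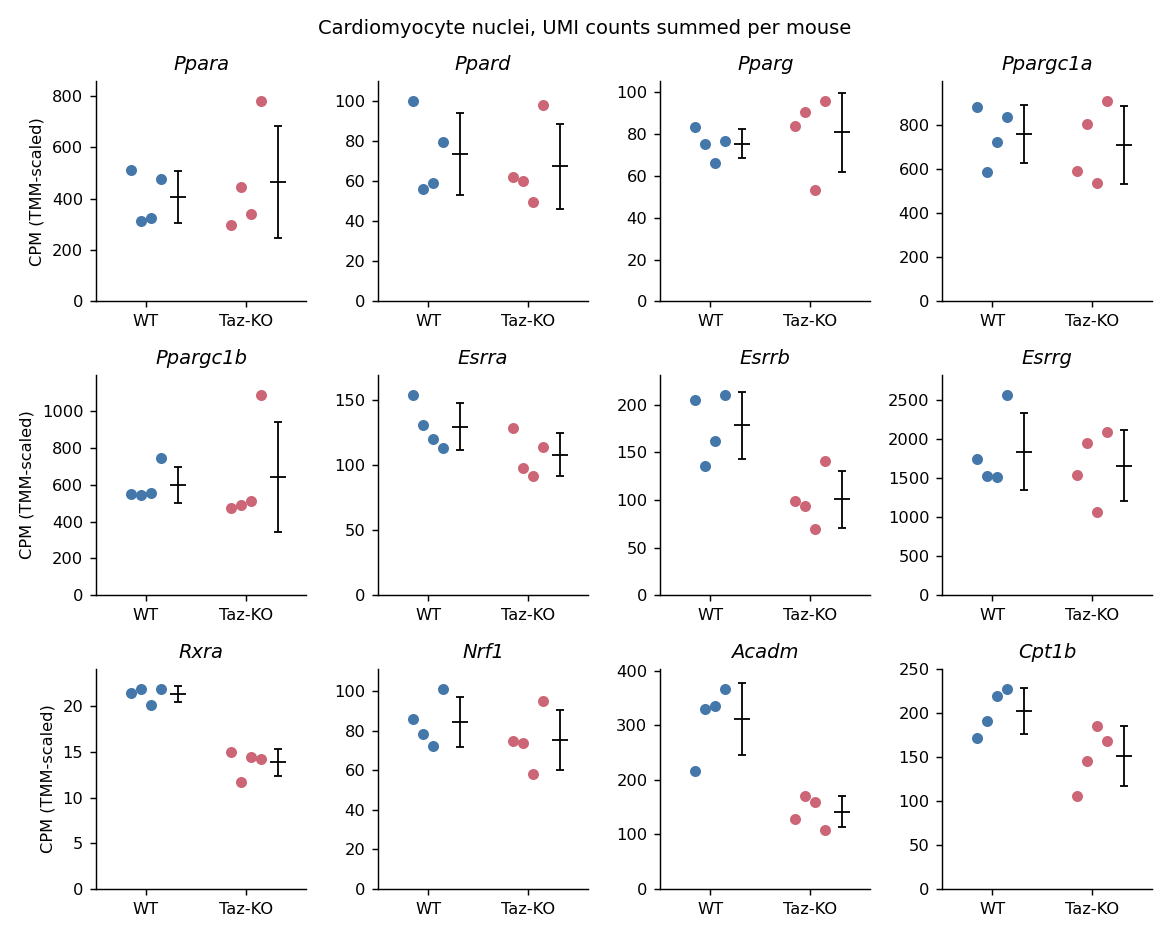
CPM with TMM factors of the 10 regulators, Acadm and Cpt1b in CMs, with 1 point per mouse, 4 WT and 4 Taz-KO, and the mean ± SD beside them. The Taz-KO points of Rxra and Acadm lie below all WT points, those of Esrrb overlap by 1 mouse, and the remaining genes overlap.

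The other ERR genes showed no call. Esrra was at 154, 131, 120 and 113 CPM in WT and 128, 97.9, 91.6 and 114 CPM in Taz-KO CMs (-0.26 ± 0.17, adjusted p = 0.363), with 2 Taz-KO mice below the lowest WT mouse. Esrrg was at 1744, 1532, 1515 and 2567 CPM in WT and 1542, 1945, 1069 and 2085 CPM in Taz-KO CMs (-0.15 ± 0.27, adjusted p = 0.787). Its highest mouse was WT 4 and its lowest Taz-KO 3, and the genotypes were interleaved.

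Ppara, the main PPAR of β-oxidation, was at 511, 311, 326 and 475 CPM in WT and 298, 444, 340 and 780 CPM in Taz-KO CMs. The lowest and the highest of the 8 values were both Taz-KO mice. The means were 406 ± 102 and 466 ± 218 CPM, and the log2 fold change of 0.20 ± 0.31 did not pass (adjusted p = 0.747). Its sign rested on Taz-KO 4, a shallow library, since without it the log2 fold change was -0.13. Ppard was at 55.7 to 99.7 CPM in WT and 49.3 to 97.8 CPM in Taz-KO (-0.13 ± 0.25, adjusted p = 0.804). Pparg was at 66.4 to 83.5 CPM in WT and 53.2 to 95.8 CPM in Taz-KO (0.10 ± 0.19, adjusted p = 0.812). All 3 PPAR genes thus had overlapping genotypes in CMs.

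The PGC-1 coactivator genes were not called either. Ppargc1a was at 882, 587, 722 and 836 CPM in WT and 588, 803, 535 and 907 CPM in Taz-KO CMs, and neither genotype lay above the other (-0.10 ± 0.23, adjusted p = 0.847). Ppargc1b was at 548, 545, 554 and 746 CPM in WT and 473, 493, 513 and 1089 CPM in Taz-KO CMs (0.10 ± 0.28, adjusted p = 0.871). In both genotypes 3 mice were close together on this scale and mouse 4 was far above them. On plain CPM, WT 4 was at 636 CPM against 526 to 556 CPM in the other WT mice. Taz-KO 4 was at 972 CPM there, against 491 to 614 CPM. Leaving out Taz-KO 4 turned the sign to -0.24, and the adjusted p without any 1 mouse stayed at 0.391 or above. Nrf1 was at 86.2, 78.6, 72.2 and 101 CPM in WT and 75.1, 73.6, 58.1 and 95.2 CPM in Taz-KO CMs, with overlap (-0.17 ± 0.18, adjusted p = 0.630). With standard errors of 0.15 to 0.31 for the members in CMs, changes of the size of these 8 could not be told from none with 4 mice per genotype.

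CMs were made up of 5 clusters, and the calls were followed in each as ratios of mean plain CPM, with no test. The genotypes were spread unevenly over them: the cluster of 3533 nuclei held 183 to 216 nuclei per WT mouse and 46 to 1658 per Taz-KO mouse, and 46.9% of it came from Taz-KO 2. The part of this in the CM results was not tested beyond the values within clusters given here. The largest, of 12437 nuclei, had Rxra at a log2 ratio of -0.64 with no overlap between genotypes, and 2 more, of 6410 and 3533 nuclei, had -0.61 and -0.59 with overlap. In the 4411 nuclei with few UMIs for their library the Rxra ratio was 0.03, at 28.2 CPM in WT and 28.7 in Taz-KO. In the 899 nuclei with the highest atrial markers Nppa and Myl7 it was 0.06. The genotypes overlapped in both clusters. Esrrb was at -0.45, -0.70, -0.82 and -0.58 in the other 4 clusters, in the order 12437, 6410, 4411 and 3533 nuclei. The genotypes were apart in the second and the last of these. In the cluster with the atrial markers Esrrb was at -0.05, with 3 Taz-KO mice only.

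The targets Acadm and Cpt1b were set beside the regulators mouse by mouse in CMs. Acadm (chr3:153922357-153944632, minus strand, GRCm38) was at 215, 329, 335 and 367 CPM in WT and 129, 170, 159 and 107 CPM in Taz-KO, with every Taz-KO mouse below every WT mouse. Its mean fell from 312 ± 66.2 to 141 ± 28.7 CPM (-1.14 ± 0.22, adjusted p = 0.00550), and without both shallow libraries the log2 fold change was -0.90 with an adjusted p of 0.0511. It was lower in each of the 5 CM clusters, from -1.04 to -0.59, with the genotypes apart in 4. Cpt1b (chr15:89416405-89425863, minus strand) was at 172, 190, 219 and 227 CPM in WT and 105, 146, 185 and 168 CPM in Taz-KO. Taz-KO 3 lay above WT 1, and the difference did not pass (-0.42 ± 0.20, adjusted p = 0.197). On plain CPM the Taz-KO mean of Acadm was lower in 10 of 10 cell types, with every Taz-KO mouse below every WT mouse in CMs only. That of Cpt1b was lower in 9 of 10.

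Because Acadm and Rxra separated the mice by genotype, no correlation over the 8 mice was computed for either, and the values of each mouse are given side by side above and in the plot of targets against regulators. WT 1, lowest of the WT mice in Acadm, was highest in Ppara, while WT 4, highest in Acadm, was next to it in Ppara and highest in Esrrg and Ppargc1b. Of the Taz-KO mice, Taz-KO 4 was lowest in Acadm and highest in Ppara, while Taz-KO 1, 3 and 2 stood in the same order in both. For Cpt1b and the other 9 members, r was computed over the 8 mice on log2(CPM + 1). It ranged from -0.43 for Pparg to 0.50 for Esrrb, and none of the 9 passed (exact permutation tests, two-sided; lowest adjusted p 0.915 for Pearson's r and 0.513 for Spearman's rho). The rho largest in size was -0.69, for Pparg, with r = -0.43. Esrrb had r = 0.50 and rho = 0.55 with Cpt1b. Both Esrrb and Cpt1b had lower Taz-KO means, so this r cannot be told apart from the genotype difference. Ppargc1b had r = 0.32 and rho = 0.57 with Cpt1b. Without WT 4 and Taz-KO 4 its genotypes were apart with TMM factors, at 545 to 554 CPM in WT and 473 to 513 CPM in Taz-KO. On plain CPM these mice overlapped, at 526 to 556 CPM in WT and 491 to 614 CPM in Taz-KO. No r is therefore given for these 6 mice.

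**Figure D3:**
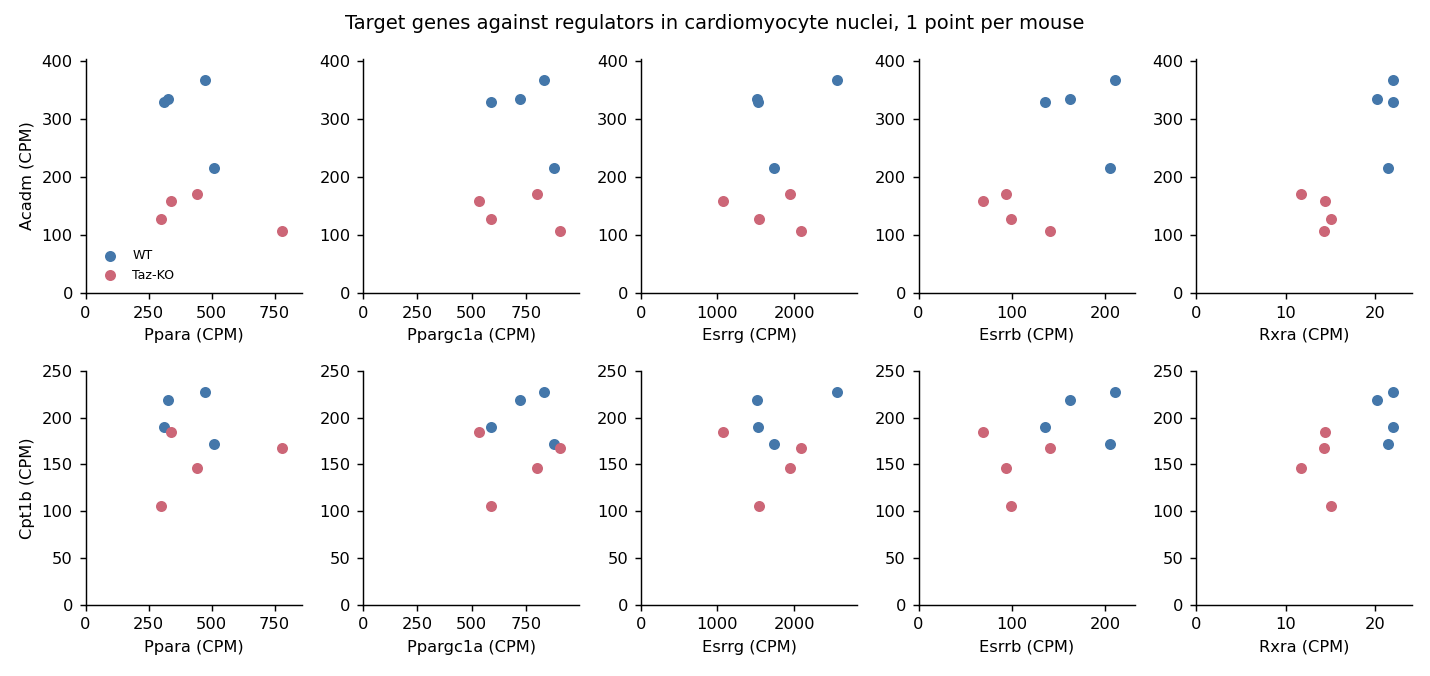
Acadm (upper row) and Cpt1b (lower row) against 5 of the regulators in CMs, Ppara, Ppargc1a, Esrrg, Esrrb and Rxra, in CPM with TMM factors, with 1 point per mouse and colour by genotype. Acadm separates the mice by genotype in every panel, while Cpt1b overlaps between genotypes, and its r with the 9 regulators tested lies between -0.43 and 0.50.

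Outside CMs, 0 of the 10 members were called by edgeR in FBs, ECs, MACs or ADIPOs. Of all genes tested, 0.301% were called in FBs, 0.472% in ECs, 0.214% in MACs and 0.0108% in ADIPOs, where Taz-KO 1 with 4 nuclei was left out and 4 WT mice were compared with 3 Taz-KO mice. At an unadjusted p under 0.05 there was 1 member in each of FBs, ECs and MACs and 0 in ADIPOs. Of all genes tested, 1693 of 17582 were under it in FBs, 1319 of 16117 in ECs, 820 of 14002 in MACs and 710 of 9273 in ADIPOs. The member counts are thus near the background and are no result about the set. DESeq2 called 1 member in ECs, Esrrb, where it called 1.86% of all genes, and 0 in the other 3, where it called 1.95% in FBs, 0.914% in MACs and 0.334% in ADIPOs. The median log2 fold change of the members was -0.22 in FBs, -0.21 in ECs, -0.19 in MACs and 0.05 in ADIPOs. Over all genes tested it was 0.005, 0.01, 0.02 and 0.001 in the same order.

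Esrrb was the member whose Taz-KO mice lay below WT most widely. In FBs it was at 15.9, 15.7, 14.0 and 15.1 CPM in WT and 5.11, 10.2, 9.52 and 3.74 CPM in Taz-KO (-0.95 ± 0.27, adjusted p = 0.227). ECs had -1.005 ± 0.22 (adjusted p = 0.101), MACs -0.90 ± 0.31 (adjusted p = 0.655) and ADIPOs -0.76 ± 0.39 (adjusted p = 0.707). The genotypes did not overlap in FBs, ECs and MACs. On plain CPM its Taz-KO mean was lower in 10 of 10 cell types and the mice were apart in 7, CMs among them. These values come from as few as 8 UMIs per mouse in FBs, 7 in ECs and 4 in MACs and, as given above, in no mouse exceeded both CM markers there, so that in these 3 cell types they cannot be told apart from the CM difference. Esrrb was above both CM markers in 5 of 7 mice in ADIPOs, 2 of 7 in Schwann cells and 1 of 8 in pericytes, and in 0 of 8 in lymphatic ECs, smooth muscle and mesothelial cells. The B-lymphocyte markers in FBs (52.7 to 72.7 CPM in WT, 17.04 to 51.6 CPM in Taz-KO) and the dendritic cell markers in MACs (64.3 to 100.1 and 45.9 to 61.6 CPM) also did not overlap, and their part was not tested. Rxra had a lower Taz-KO mean in 6 of 10 cell types and the genotypes were apart in CMs only, while in MACs its log2 fold change was 0.08 ± 0.24.

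**Figure D4:**
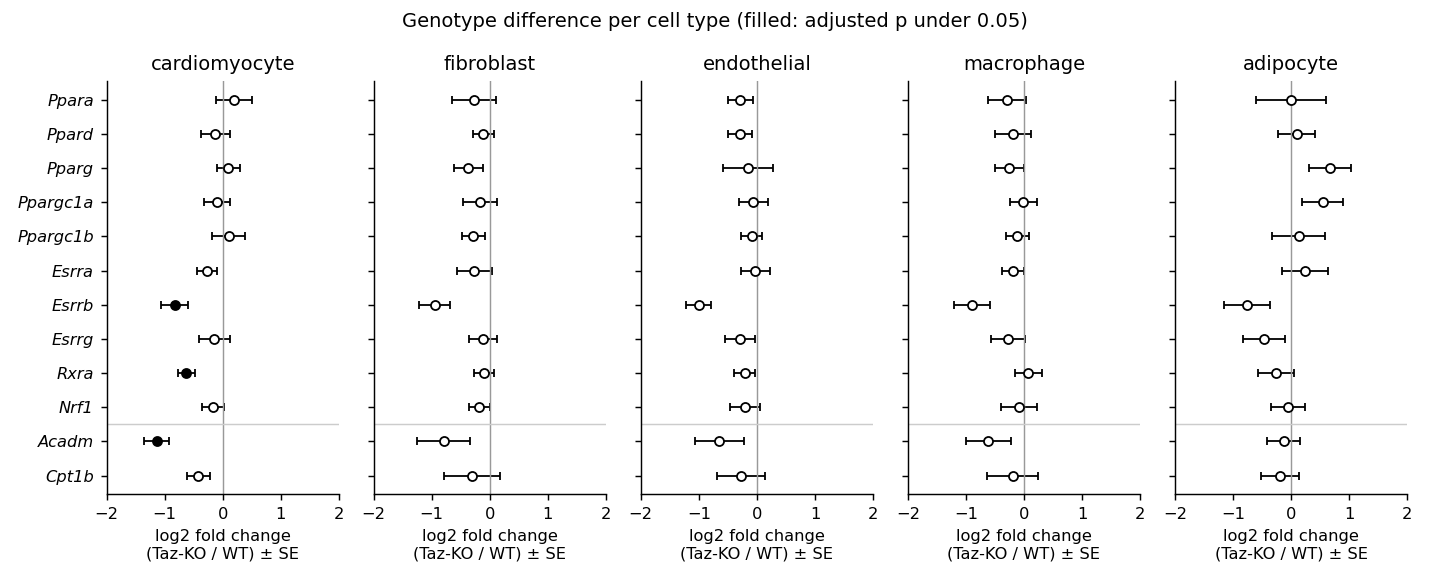
Log2 fold change, Taz-KO over WT, of each member, Acadm and Cpt1b in CMs, FBs, ECs, MACs and ADIPOs, with bars of 1 SE and filled points at an adjusted p under 0.05. Esrrb is below zero in all 5 cell types, and Rxra is farthest below zero in CMs, at -0.63.

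Whether CMs differed from another cell type in the genotype effect was tested as an interaction with the mouse as a block. Of all genes, 4.66% were called against FBs, 2.54% against ECs and 1.26% against MACs, and 0 of the 10 members were called by edgeR in any of the 3. At an unadjusted p under 0.05 there was 1 member in each, Rxra. The Rxra effect in CMs minus that in FBs was -0.61 ± 0.17 (adjusted p = 0.0695), against ECs -0.49 (adjusted p = 0.170) and against MACs -0.68 (adjusted p = 0.133). A greater fall of Rxra in CMs was thus not shown at the threshold. For Esrrb the differences were -0.09, -0.03 and -0.12 on the log2 scale.

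In ADIPOs, where Pparg and Ppara were highest, no member passed. Pparg was at 2227, 2217, 2184 and 1134 CPM in WT and 2100, 2644 and 4523 CPM in Taz-KO 2, 3 and 4, with WT 4 lowest and Taz-KO 4 highest (0.66 ± 0.36). Ppargc1a was at 212, 486, 516 and 236 CPM in WT and 468, 434 and 709 CPM in Taz-KO (0.54 ± 0.35). Both overlapped, and Taz-KO 4 held 21 ADIPO nuclei. Macrophage markers in ADIPOs summed to 905 to 1488 CPM in WT and 401 to 825 CPM in Taz-KO, and the lists of B-lymphocytes (84.7 to 212 and 30.3 to 59.4 CPM) and T-lymphocytes (22.5 to 68.7 and 0 to 17.6 CPM) did not overlap either. Their part in these values was not tested.

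The genes around the regulators were followed in CMs in 5 lists, chosen with earlier results of these data known. Of 43 fuel and mitochondrial target genes of PPAR and ERR, 15 were lower and 0 higher (34.9% called, against 15.3% of all genes, and 6.63% called as lower), 40 had a fold change below zero, and the median was -0.76 on the log2 scale, against -0.01 over all genes. Of the 15 called genes, those with the lowest fold changes were Ucp3, a mitochondrial uncoupling protein (-1.89 ± 0.51, adjusted p = 0.0369), and Acaa2, the last enzyme of the β-oxidation spiral (-1.79 ± 0.30, adjusted p = 0.00251). Slc27a1, a fatty acid transporter, fell by 1.35 and Acsl1, which activates fatty acids to acyl-CoA, fell by 1.34 on the log2 scale. Acsl1 went from 554 ± 130 to 219 ± 49.4 CPM with no overlap. Apart from Ucp3, the 15 genes act in fatty acid uptake, activation or oxidation, among them Lpl, Hadha, Hadhb, Acadl, Cpt2, Slc25a20, Decr1, Etfa and Etfdh. Of the citric acid cycle and the respiratory chain, Cs, citrate synthase, was at -0.13 ± 0.15, Sdha at -0.30 ± 0.18 and Ndufs1 at -0.50 ± 0.16 (adjusted p = 0.0649), with no overlap between genotypes for Ndufs1. Pdk4, the kinase that turns pyruvate away from the citric acid cycle, had the lowest fold change of the whole list, -2.07 ± 0.88, and did not pass (adjusted p = 0.162), as the WT mice themselves ran from 47.0 to 748 CPM and the Taz-KO mice from 31.8 to 135 CPM. Without both shallow libraries, 5 of the 43 were called (11.6%, against 10.6% of all genes), so that the share of called genes was then near the background, with a median of -0.51 and 39 values below zero.

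Among 20 partners and coactivators, 3 fell and 1 rose (20%), near the 15.3% of all genes, so that the count is no result about the list. Lpin1, a coactivator of PPARα with PGC-1α and a phosphatidate phosphatase, went from 278 ± 83.4 to 92.2 ± 15.5 CPM (-1.59 ± 0.24, adjusted p = 0.00126). Rxrg, the muscle form of RXR, fell by 0.69 and Mapk14, the p38 kinase that acts on PGC-1α, by 0.66, while Prkab2, a subunit of the energy sensor AMPK, rose by 0.62 on the log2 scale. All 4 had no overlap between genotypes, and the count was 1 (5%) without both shallow libraries, against 10.6% of all genes, 1 in the largest CM cluster, against 8.35%, and 2 (10%) without Taz-KO 1, against 13.2%, or without Taz-KO 3, against 10.4%. Of 12 corepressors and opposing factors, 4 fell and 0 rose (33.3%, against 15.3% of all genes called and 6.63% called as lower), with a median of -0.53 against -0.01. Hdac4, a histone deacetylase that holds MEF2 in check, went from 254 ± 66.7 to 95.5 ± 25.3 CPM (-1.41 ± 0.25, adjusted p = 0.00319), and Tbl1xr1, Hdac5 and Nrip1 (RIP140) fell by 0.78, 0.72 and 0.70. The count was 2 of 12 (16.7%) without Taz-KO 3, against 10.4% of all genes, and 2 without both shallow libraries, against 10.6%, while the median was -0.53 and -0.57 in these fits.

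Of 17 regulators of mitochondrial genes, such as Tfam, Gabpa and Mef2a, 0 were called by edgeR or DESeq2, which called 15.3% and 18.9% of all genes. Their median was -0.14, and 2 were at an unadjusted p under 0.05. By edgeR, 5211 of all 18299 genes tested in CMs were under that p. Of 16 clock genes, which differ between hearts taken at different times of day, 0 were called by edgeR, against 15.3% of all genes, 2 were at an unadjusted p under 0.05, and 2 (12.5%) were called by DESeq2, both lower, against 18.9% of all genes. Their median was -0.20, but 0.12 without WT 1, where 1 was called, and 0.02 without WT 2. Arntl (BMAL1), an activator of the clock, ran from 3.26 to 113 CPM among the WT mice and from 4.53 to 7.29 CPM among the Taz-KO mice, and did not pass (adjusted p = 0.0903). The WT mice thus differed among themselves in this gene more than the Taz-KO mice did. The time of day at which hearts were taken is not given in the sources used here, and its part in the results was not tested.

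**Figure D5:**
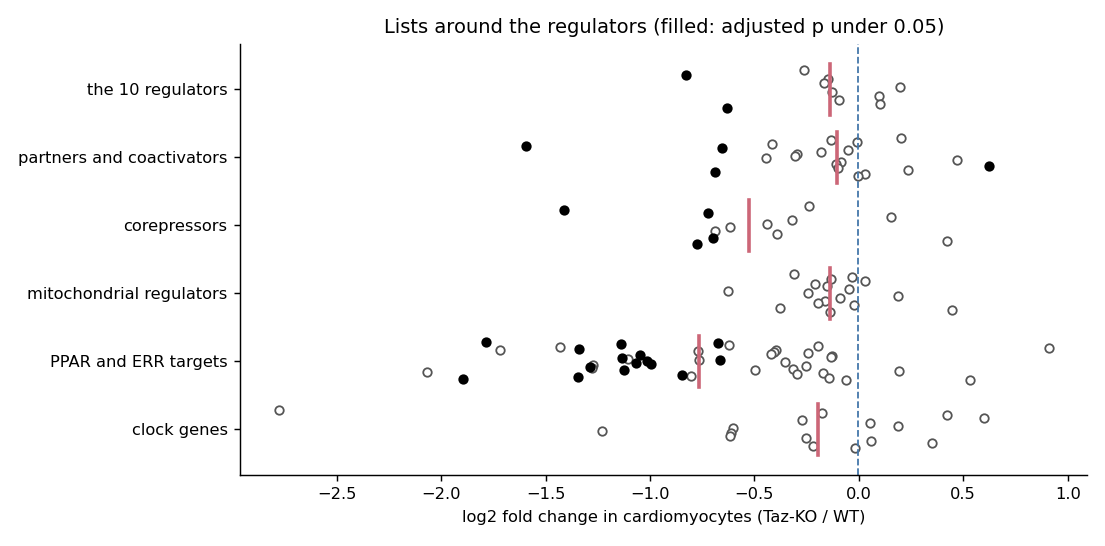
Log2 fold change, Taz-KO over WT, in CMs for each gene of the members and the 5 lists, with called genes filled and the median of a list as a red bar. Of the 43 PPAR and ERR targets 40 lie below zero, while the members and the 17 regulators of mitochondrial genes lie nearer to zero, with medians of -0.14 each.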

How the data were processed

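For each of the 8 hearts the authors deposited a matrix of UMI counts, unnormalized, from a 10x 3' library. The submitters' processing notes name Cell Ranger 6.0.1 and mm10. These counts precede the study's removal of free RNA and doublets, so free RNA remains in them, and the depth of a library, 20025456 to 348080773 UMIs, limits the low values. A nucleus was kept from 800 UMIs and 250 genes upward, and the 13 mitochondrial genes were left out. This filter removed barcodes only from Taz-KO 1 (3492 to 3475) and Taz-KO 4 (5571 to 3890). Doublets were scored against artificial ones per library and the top share, which grew with the number of nuclei to at most 10%, was removed. That share was 2.78% in Taz-KO 1, 3.11% in Taz-KO 4 and 10% in each other library. The 2000 most variable genes, 15 principal components corrected for the mouse after the Harmony algorithm, and 20 neighbours were used for Leiden clustering at a resolution of 0.9 (Python 3.11.15, igraph 0.11.9). Of 43 clusters, 26 were left without a name. Thresholds of the naming rule were set after marker values had been seen.

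For each cell type, UMIs were added up within a mouse that had at least 10 nuclei of it. The sums were compared by the robust quasi-likelihood F test of edgeR 4.0.16 (R 4.3.3) after filterByExpr and TMM scaling. Benjamini-Hochberg adjustment ran over all genes of a fit, and a gene was called at 0.05. The study tested single nuclei with the mouse as a covariate, where sums per mouse were tested here. Scripts were tested on simulated data. The p-values set the genotype difference against the spread between mice, which with 1 library per mouse includes differences between libraries. The interaction test with the mouse as a block uses the spread left within mice instead. The members and gene lists were chosen with earlier results of these data known. Named are the members, Acadm, Cpt1b, Taz, the 4 largest called changes of each list, and, for members whose highest WT mean was at least 10 CPM and 4 times the lowest, the 3 genes most alike in pattern. Other genes of the lists were named after their values were seen. The alternatives were DESeq2 1.42.0, RLE factors, no filter, leaving out each mouse or both shallow libraries, and a subtraction of free RNA at a share of 0.2. Further ones kept only nuclei with UMIs of both of a pair of markers of the cell type, Ttn and Ryr2 in CMs. The rest changed the resolution, the doublet share or the UMI minimum (1500), or kept the largest CM cluster. For lists, alternatives beside DESeq2 were added after seeing the data. Gene positions are from GENCODE on GRCm38. Promoter windows are from RefSeq. Ppargc1b and Cpt1b have none shown.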

Additional observations from a re-analysis of the deposited data

Results flagged for a closer look

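In 117 groups of 4 mice, 1 mouse was set apart from the other 3 by Dixon's test in 9 groups. The test was run on CPM with TMM factors and not on plain CPM. Chance gives about 1 in 20. WT 4 and Taz-KO 4 were the mouse in 3 of the 9 each.

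In CMs, Ppargc1b, a PGC-1 coactivator, was at 746 CPM in WT 4 against 545 to 554 CPM in the other WT mice, and at 1089 CPM in Taz-KO 4 against 473 to 513 CPM. Taz was at 23.6 CPM in Taz-KO 3 against 35.9 to 38.3 CPM. In ECs, Ppara was at 37.4 CPM in WT 3 against 50.1 to 52.6 CPM, Acadm at 58.0 CPM in Taz-KO 4 against 185 to 200.2 CPM, and Taz at 21.2 CPM in Taz-KO 2 against 13.2 to 14.2 CPM. In MACs, Ppard was at 119 CPM in Taz-KO 4 against 47.8 to 59.6 CPM, and Pparg at 117 CPM in WT 4 against 70.7 to 77.8 CPM. In ADIPOs, Pparg was at 1134 CPM in WT 4 against 2184 to 2227 CPM in the other WT mice.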

How the results depend on the processing

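In CMs, 2 regulators were called, and 1 to 2 when each mouse was left out. The fits with a mouse left out called 10.2% to 14.1% of all genes, a share that also stands beside the list counts below. In the largest CM cluster, where Esrrb was lost, the count was 1 and 8.35% of all genes were called. These counts of regulators are near the background and are no result about the set. Rxra was called in all 18 alternatives, Acadm and Taz in 17 each, with adjusted p of 0.0511 and 0.0512 without both shallow libraries. In ECs, DESeq2 called 1 regulator, Esrrb (adjusted p = 0.00772). DESeq2 also called Taz in ECs and in MACs. The target list gave 15 calls, 10 to 16 leaving out each mouse, 5 (11.6%) without both shallow libraries, where 10.6% of all genes were called, and 21 (48.8%) with DESeq2, against 18.9%. Partners and coactivators gave 4, 2 to 4 leaving out each mouse, and 1 without both shallow libraries and in the largest CM cluster. Corepressors gave 4, 2 to 4 leaving out each mouse, and 2 without both shallow libraries. Clock genes gave 0, 0 to 1 leaving out each mouse, and 2 with DESeq2. Counts over all genes were, in CMs, 2791, from 1330 in the largest cluster to 3457 with DESeq2; in FBs 53, 0 with free RNA subtracted and 342 with DESeq2; in ECs 76, 2 and 300 in the same pair; in MACs 30, 0 and 128; in ADIPOs 1, 0 with free RNA subtracted and 234 with no filter. The cause of these moves was not tested. Of 48 values not called, 23 changed sign in at least 1 alternative, and 52 of the 61 changes came from leaving libraries out. No called value changed sign. The interactions gave 0 called members without the mouse block too. No paired analysis was run, because the labels give each mouse a number of its own and name no litter, batch or pair. Taz-KO 1 and WT 1 have adjacent label numbers (4685 and 4686), as do WT 2 and Taz-KO 2 (4909 and 4910). Mice 3 and 4 have adjacent numbers within a genotype (5300 and 5301 in Taz-KO, 5355 and 5356 in WT). The part of this in the results was not tested. The mouse numbers 1 to 4 used here follow the order of deposit. The depth of Taz-KO 1 and Taz-KO 4 limits what 4 mice per genotype can show.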

Other observations

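In the 40350 nuclei of clusters without a name, the genotypes overlapped on plain CPM for each of the 10 regulators. Rxra was at 34.2 ± 3.83 plain CPM in WT and 27.5 ± 5.43 plain CPM in Taz-KO there, and Esrrb was at 49.9 ± 2.44 and 46.3 ± 13.3 plain CPM (SD, n = 4 each).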
